A study of Homo sapiens with 27 samples.

Results

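The 10 genes below, BCL2 family members, were followed across every group of a 3′ end RNA-seq series in 501mel cells, a human melanoma line that expresses MITF strongly. They were selected by symbol, all 10 of the 10 symbols were found among the 13523 genes of the normalised expression table, and all 10 were among the 13052 genes tested. Their choice was not blind to the data, because BBC3 had been noted as the strongest riser in HBSS, a salt solution without amino acids. Values from that condition are therefore given below as a description, with no p-value, and nothing is read from calls made in it.

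BCL2 family proteins decide whether the outer mitochondrial membrane is opened, the step that releases cytochrome c and starts the caspase cascade of intrinsic apoptosis. The effectors BAX and BAK1 form the pores, the pro-survival proteins BCL2, BCL-xL (BCL2L1), MCL1 and BFL1 (BCL2A1) hold them in check, and the BH3-only proteins PUMA (BBC3), NOXA (PMAIP1), BIM (BCL2L11) and BID tip the balance towards death. In melanocytes and melanoma, BCL2 and BCL2A1 are known targets of the lineage factor MITF, and BBC3 and PMAIP1 are known to respond to nutrient and protein folding stress.

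Parental (WT) cells were left untreated, starved of amino acids for 12 h in HBSS, a salt solution that contains glucose, or exposed for 12 h to 250 nM Torin1, a kinase inhibitor of mTOR. TFEB KO, TFE3 KO and double knockout lines (DKO, both genes edited) were each harvested after 12 h as controls or after 12 h with 250 nM Torin1. TFE3 and TFEB are transcription factors of the MITF family whose nuclear entry is restrained by mTORC1. Each knockout was made in 501mel cells with Cas9 and is a single clone, so that clone and genotype cannot be told apart. The labels give 3 libraries for each of the 9 groups and do not say that they came from separate cultures, so p-values measure the spread between these libraries. WT cells are labelled as non-treated and knockout cells as 12 h controls, a difference that enters each comparison between a knockout and WT. It also enters HBSS and Torin1 in WT, which have no group labelled as a 12 h control. The Torin1 response of a knockout minus that of WT carries it too. Below, WT untreated and knockout control cells are together called fed cells.

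The columns labelled WT HBSS replicate 3 and WT Torin replicate 1 held identical values, and both were left out, which left 25 libraries and n = 2 for WT HBSS and WT Torin. The libraries held 4147050 to 6526392 reads, and a count of 0 allows up to 3 reads, worth a normalised read count of 0.460 to 0.711. In fed WT cells TFE3 had a mean of 24.0 and TFEB of 3.25. TFE3 was at 6.30 in fed TFE3 KO and 6.35 in fed DKO cells, and TFEB was at 1.11 in fed TFEB KO, 0.681 in fed TFE3 KO and 0.661 in fed DKO cells, so that it was also low in the line edited at TFE3 alone. In HBSS TFEB had a mean of 29.2 and TFE3 of 24.4. The values do not check the knockouts, since 3′ end reads lie away from a Cas9 cut and do not show the edit. All 8 melanocytic marker genes listed for the check were tested, with MITF at 762 and SOX10 at 452 in untreated WT cells. None of 4 keratinocyte, 1 of 5 leukocyte and 3 of 6 fibroblast markers had a row in the table, the leukocyte marker being CD68, which is also a lysosomal protein of many cell types. CD68 had means of 34.4 in WT untreated, 56.8 in WT HBSS and 58.1 in WT Torin cells, and its part in the results below was not tested.

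The region around the start site is shown for BBC3, PMAIP1, BCL2 and BCL2A1, which the results describe at most length, and for BAX, which was added because its window held the most matches. Sequences are RefSeq windows on GRCh38.p14, from 250 bases before to 50 bases after a gene's start, which matched 9 of the 10 members with 14 windows (MCL1 was not matched). Capitals mark the letters that matched a searched motif on either strand. The motifs were the E-box CACGTG and the longer TCACGTGA, which contains it and is the site preferred by MITF, TFEB and TFE3, the M-box core CATGTG, the ATF4 composite TGATGCAA, the FOXO site GTAAACA and the CRE core TGACGT.

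BBC3, chr19:47232618-47232917, - strand: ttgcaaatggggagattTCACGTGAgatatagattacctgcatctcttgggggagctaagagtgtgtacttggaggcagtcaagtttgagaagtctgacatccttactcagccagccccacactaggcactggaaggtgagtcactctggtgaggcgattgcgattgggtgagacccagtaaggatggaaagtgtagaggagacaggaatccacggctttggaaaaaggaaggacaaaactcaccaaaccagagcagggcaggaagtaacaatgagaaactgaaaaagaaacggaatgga
BAX, chr19:48954625-48954924, + strand: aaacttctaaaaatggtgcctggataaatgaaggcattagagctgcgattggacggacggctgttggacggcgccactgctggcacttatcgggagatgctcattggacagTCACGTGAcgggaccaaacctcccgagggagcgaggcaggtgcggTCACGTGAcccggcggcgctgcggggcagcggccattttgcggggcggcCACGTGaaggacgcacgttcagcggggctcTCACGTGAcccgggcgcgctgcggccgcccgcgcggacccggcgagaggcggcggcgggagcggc
PMAIP1, chr18:59899746-59900045, + strand: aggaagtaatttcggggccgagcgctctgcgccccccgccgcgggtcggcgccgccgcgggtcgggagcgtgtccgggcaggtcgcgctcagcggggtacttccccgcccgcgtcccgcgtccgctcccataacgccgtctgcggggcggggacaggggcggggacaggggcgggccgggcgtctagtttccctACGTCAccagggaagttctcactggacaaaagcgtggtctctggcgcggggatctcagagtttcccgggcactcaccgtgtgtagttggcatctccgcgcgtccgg
BCL2, chr18:63319720-63320019, - strand: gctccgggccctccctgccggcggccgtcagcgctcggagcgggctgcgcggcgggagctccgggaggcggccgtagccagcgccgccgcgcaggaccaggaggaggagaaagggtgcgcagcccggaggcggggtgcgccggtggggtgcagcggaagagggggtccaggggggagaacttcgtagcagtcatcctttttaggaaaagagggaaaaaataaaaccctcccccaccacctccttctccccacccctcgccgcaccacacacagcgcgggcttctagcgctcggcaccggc
BCL2A1, chr15:79971147-79971446, - strand: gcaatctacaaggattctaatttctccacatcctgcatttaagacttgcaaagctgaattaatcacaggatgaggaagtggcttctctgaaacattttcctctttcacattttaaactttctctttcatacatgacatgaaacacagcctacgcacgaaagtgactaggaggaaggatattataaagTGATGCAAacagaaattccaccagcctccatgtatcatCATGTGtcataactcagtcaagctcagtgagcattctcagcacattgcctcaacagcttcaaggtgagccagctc

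The BBC3 window held 1 TCACGTGA, which began at -233 relative to the start, and the BAX window held 3, at -139, -94 and -15, with a further CACGTG at -45. Among all 35116 windows, 0.98% held TCACGTGA and 7.26% held CACGTG. In the BCL2A1 window CATGTG was found once, at -25, and TGATGCAA once, at -63, motifs found in 11.1% and 0.866% of all windows. The PMAIP1 window held TGACGT at -56, as did 7.98% of all windows, and the BCL2L11 window (chr2:111120664-111120963, + strand) held GTAAACA at -223, as did 3.42%. For BID, 2 of 5 windows held CACGTG and another held CATGTG. No searched motif was found in the windows of BAK1, BCL2 or BCL2L1. These matches describe the letters of 1 window per start and show neither binding nor its absence.

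In hg38 the members lie on chromosomes 19 (BBC3, 47220822 to 47232766, and BAX, 48954815 to 48961798), 18 (PMAIP1, 59899996 to 59904305, and BCL2, 63123346 to 63320128), 2 (BCL2L11, 111119378 to 111168444), 22 (BID, 17734138 to 17774770), 6 (BAK1, 33572547 to 33580293), 20 (BCL2L1, 31664452 to 31723989), 1 (MCL1, 150560895 to 150579738) and 15 (BCL2A1, 79960892 to 79971196). Annotated neighbours overlap BCL2L11, BAK1 and BCL2L1 on the opposite strand only, BID on the same strand only, and BBC3, BCL2 and MCL1 on both strands. The library kit keeps the strand of the transcript, but the counting setting was not given in the sources used here.

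**Figure D1:**
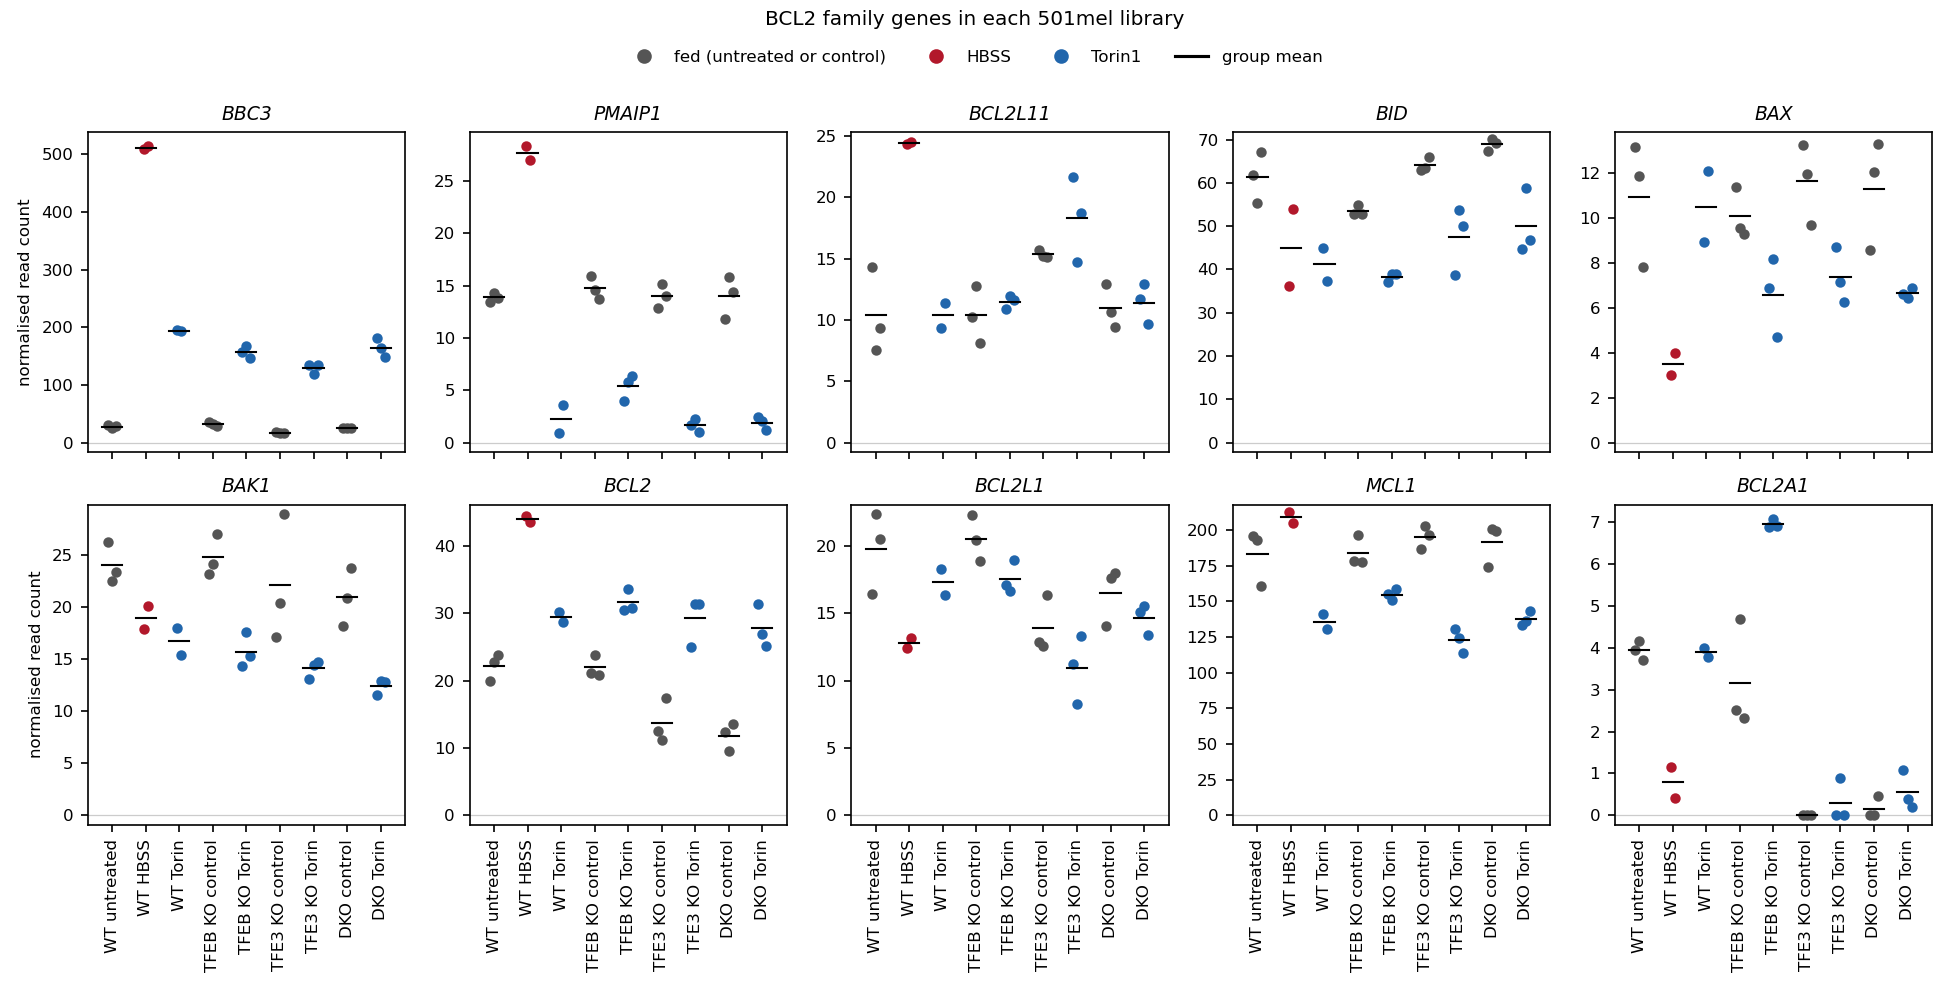
Normalised read count of each BCL2 family gene in each of the 25 libraries, 1 panel a gene with its own linear vertical axis, groups along the horizontal axis, points for libraries and bars for group means. BBC3 stood highest in HBSS and next in every Torin1 group, PMAIP1 stood highest in HBSS and lowest with Torin1, and BCL2A1 was near 0 in TFE3 KO and DKO cells.

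HBSS asks what a change to a salt solution without amino acids does to WT cells. It is the condition in which BBC3 was picked out, so its values are a description. BBC3 had normalised read counts of 29.7, 25.5 and 28.1 in untreated cells and 509 and 514 in HBSS, a ratio of means of 18.4. PMAIP1 had 13.5, 14.3 and 13.9 against 28.3 and 27.0, BCL2L11 had 14.3, 7.52 and 9.37 against 24.4 and 24.5, and the untreated and HBSS libraries of these 3 BH3-only genes did not overlap, as was so for all 10 members and for 63.1% of all genes. In bulk RNA, fewer cells that express a gene and less RNA per cell cannot be told apart. BID, the BH3-only protein that caspase-8 cleaves, was lower in HBSS, with 36.1 and 54.0 against 61.8, 55.4 and 67.1. Among the pro-survival genes, BCL2 had 19.9, 22.8 and 23.8 against 44.4 and 43.5, whereas BCL2L1 had 16.4, 22.4 and 20.5 against 12.4 and 13.2. BCL2A1 was low throughout, with 3.94, 4.16 and 3.71 against 1.15 and 0.419, the last being 2 reads.

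The effectors were lower in HBSS, BAX with 13.1, 11.9 and 7.81 against 2.99 and 3.98, and BAK1 with 26.3, 22.6 and 23.4 against 17.9 and 20.1. MCL1, the most abundant pro-survival transcript, had 196, 193 and 161 against 213 and 205. In the fit across all genes (limma on log2(value + 1), adjusted p under 0.05 by Benjamini-Hochberg over 13052 genes) 4 members were called higher in HBSS, where 23.6% of all tested genes were, and 4 lower, where 24.7% were. This contrast helped to choose the members, so these counts are no test of them and nothing is read from them.

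Torin1 against fed cells asks what mTOR inhibition does, and it was measured in 4 genotypes. The fold changes in TFEB KO, TFE3 KO and DKO cells use no WT library, whereas Torin1 in WT shares its 3 untreated libraries with the HBSS values above. The SE and p-values of all 4 comparisons rest on a spread estimated over all 25 libraries, WT included. BBC3 rose and PMAIP1 fell with Torin1 in all 4 genotypes, so that these BH3-only genes, which were both higher in HBSS, moved in opposite directions. BBC3 had 195 and 194 in WT Torin, 157, 168 and 146 in TFEB KO Torin, 134, 119 and 135 in TFE3 KO Torin, and 182, 164 and 148 in DKO Torin. In fed knockout cells it had 36.0, 31.5 and 29.2 (TFEB KO), 17.5, 17.2 and 15.9 (TFE3 KO) and 25.7, 25.8 and 25.2 (DKO). Every Torin1 library was thus above every fed library of any genotype.

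The log2 fold change of BBC3 was 2.76 ± 0.11 (SE) in WT, 2.25 ± 0.10 in TFEB KO, 2.87 ± 0.10 in TFE3 KO and 2.63 ± 0.10 in DKO cells. The adjusted p was 1.04e-25, 4.10e-24, 2.86e-28 and 3.14e-27, and every one of 36 alternative settings kept these calls. By size of its log2 fold change BBC3 ranked 6th in WT, 7th in TFEB KO, 5th in TFE3 KO and 10th in DKO among the 13052 genes, ordered from the highest.

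PMAIP1 had 0.938 and 3.56 in WT Torin, 3.97, 5.81 and 6.31 in TFEB KO Torin, 1.70, 2.23 and 1.04 in TFE3 KO Torin, and 2.46, 2.09 and 1.18 in DKO Torin. In the fed knockout cells it had 15.9, 14.6 and 13.8 (TFEB KO), 12.9, 15.2 and 14.0 (TFE3 KO) and 11.8, 15.9 and 14.4 (DKO). The Torin1 libraries did not overlap with the fed libraries in any genotype, although they rest on few reads, 4 and 15 in WT Torin and 5 to 10 in TFE3 KO Torin.

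The log2 fold change of PMAIP1 was -2.32 ± 0.26 (SE) in WT, -1.33 ± 0.23 in TFEB KO, -2.52 ± 0.23 in TFE3 KO and -2.39 ± 0.23 in DKO cells, with adjusted p = 4.08e-10, 9.70e-06, 7.58e-13 and 4.35e-12. With the identical column counted as WT Torin replicate 1, the WT and TFEB KO calls were lost (adjusted p = 0.0673 and 0.0628).

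**Figure D2:**
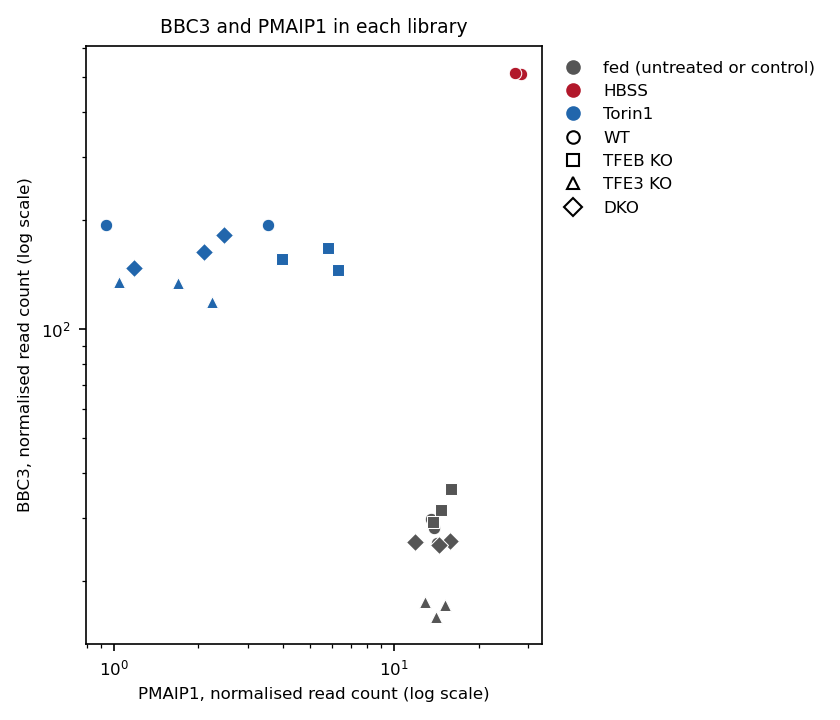
BBC3 against PMAIP1, both as normalised read counts on log axes, 1 point a library, colour for condition and shape for genotype. Fed libraries form a group with low BBC3, Torin1 libraries have high BBC3 and low PMAIP1, and the WT HBSS libraries are high in both.

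The other BH3-only genes moved less. BCL2L11, whose protein binds all pro-survival members, had 9.38 and 11.4 in WT Torin, and its group means with Torin1 in the knockouts were 11.5 (TFEB KO), 18.3 (TFE3 KO) and 11.4 (DKO). None of these differed from fed cells by the test, with log2 fold changes of 0.04 (95% interval -0.38 to 0.46) in WT, 0.15 (-0.22 to 0.53) in TFEB KO, 0.23 (-0.15 to 0.60) in TFE3 KO and 0.05 (-0.32 to 0.43) in DKO cells. BID fell in all 4 genotypes. Its values were 45.0 and 37.4 in WT Torin, 37.1, 38.9 and 38.9 in TFEB KO Torin, 38.8, 53.7 and 50.1 in TFE3 KO Torin, and 44.8, 58.8 and 46.8 in DKO Torin, each below the fed libraries of its genotype. The log2 fold changes were -0.57 (adjusted p = 0.000592) in WT, -0.47 (adjusted p = 0.00154) in TFEB KO, -0.44 (adjusted p = 0.00211) in TFE3 KO and -0.46 (adjusted p = 0.00128) in DKO cells.

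Of the effectors, BAK1, which is anchored in the outer mitochondrial membrane, fell in all 4 genotypes. It had 18.0 and 15.4 in WT Torin, 14.3, 17.6 and 15.3 in TFEB KO Torin, 13.1, 14.5 and 14.8 in TFE3 KO Torin, and 11.5, 12.9 and 12.8 in DKO Torin. Its log2 fold changes were -0.50 (adjusted p = 0.0161) in WT, -0.63 (adjusted p = 0.00105) in TFEB KO, -0.58 (adjusted p = 0.00143) in TFE3 KO and -0.71 (adjusted p = 0.00016) in DKO cells. The WT call was lost without WT untreated replicate 1 (adjusted p = 0.0613) or WT Torin replicate 3 (adjusted p = 0.165) and with the identical column as WT Torin replicate 1 (adjusted p = 0.0734), and the TFE3 KO call without TFE3 KO control replicate 3 (adjusted p = 0.0525).

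BAX, which moves from the cytosol to mitochondria when activated, fell with Torin1 in the 3 knockout lines. In WT Torin it had 8.91 and 12.1, overlapping with untreated cells (log2 fold change -0.04, 95% interval -0.52 to 0.44). In the knockouts it had 6.90, 8.17 and 4.68 against 11.4, 9.56 and 9.28 (TFEB KO), 8.69, 7.12 and 6.24 against 13.2, 12.0 and 9.67 (TFE3 KO), and 6.61, 6.45 and 6.89 against 8.57, 12.0 and 13.3 (DKO). The log2 fold changes of -0.57, -0.60 and -0.67 had adjusted p = 0.0292, 0.0164 and 0.00764. These calls depended on single libraries, since leaving out TFEB KO control replicate 1, TFEB KO Torin replicate 3, TFE3 KO control replicate 1, TFE3 KO Torin replicate 3 or DKO control replicate 3 gave adjusted p = 0.111, 0.216, 0.0797, 0.0783 and 0.0545 in turn, and the TFEB KO call was also lost in edgeR (0.0704), DESeq2 (0.0811) and with the identical column kept as WT Torin replicate 1 (0.0628) or under both labels (0.0804).

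Among the pro-survival genes, BCL2 rose and MCL1 fell with Torin1 in every genotype. BCL2 had 30.2 and 28.7 in WT Torin, 30.5, 33.6 and 30.7 in TFEB KO Torin, 25.02, 31.4 and 31.4 in TFE3 KO Torin, and 31.4, 26.9 and 25.2 in DKO Torin. The fed knockout libraries had 21.2, 23.8 and 20.9 (TFEB KO), 12.5, 11.2 and 17.5 (TFE3 KO) and 12.3, 9.59 and 13.6 (DKO). Group means thus lay between 27.8 and 31.6 with Torin1 and between 11.8 and 22.2 in fed cells, with ratios of means of 1.33 in WT, 1.44 in TFEB KO, 2.13 in TFE3 KO and 2.35 in DKO cells. Its log2 fold changes were 0.40 (adjusted p = 0.0438), 0.51 (adjusted p = 0.0048), 1.05 (adjusted p = 4.05e-08) and 1.17 (adjusted p = 3.43e-09) in the same order. The WT call was the least secure, with adjusted p from 0.00498 to 0.181 over 36 alternatives, and it was lost without WT untreated replicate 1 or 2 or WT Torin replicate 2 or 3.

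MCL1, a protein of rapid turnover, had 141 and 130 in WT Torin, 155, 151 and 158 in TFEB KO Torin, 131, 124 and 114 in TFE3 KO Torin, and 133, 137 and 143 in DKO Torin. The fed knockout libraries had 178, 196 and 178 (TFEB KO), 187, 203 and 197 (TFE3 KO) and 174, 201 and 199 (DKO), and no Torin1 library reached the lowest fed library of its genotype. The log2 fold changes were -0.42 (adjusted p = 0.000132) in WT, -0.25 (adjusted p = 0.012) in TFEB KO, -0.67 (adjusted p = 1.30e-09) in TFE3 KO and -0.47 (adjusted p = 3.25e-06) in DKO cells. In TFEB KO the call was lost in edgeR (adjusted p = 0.0559) and without TFEB KO control replicate 2 (adjusted p = 0.081). Counting the identical column as WT Torin replicate 1 ended the WT and TFEB KO calls (adjusted p = 0.130 and 0.110).

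BCL2L1, which encodes BCL-xL, did not pass in any genotype, with log2 fold changes of -0.17 (95% interval -0.54 to 0.19) in WT, -0.21 (-0.54 to 0.11) in TFEB KO, -0.34 (-0.67 to -0.01) in TFE3 KO and -0.16 (-0.49 to 0.17) in DKO cells. BCL2A1 rose in TFEB KO cells, from 2.50, 4.69 and 2.32 to 6.90, 7.07 and 6.92, a log2 fold change of 0.98 ± 0.28 (SE, adjusted p = 0.00525). A pseudocount of 0.1 ended this call (adjusted p = 0.206, the highest over 36 alternatives). In WT cells it had 3.98 and 3.79 with Torin1, within the range of untreated cells, and the difference between the TFEB KO and WT responses did not pass (0.99, adjusted p = 0.281). BCL2A1 with Torin1 had 0, 0.891 and 0 in TFE3 KO and 1.08, 0.379 and 0.197 in DKO cells, resting on 4 and 10 reads in all.

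**Figure D3:**
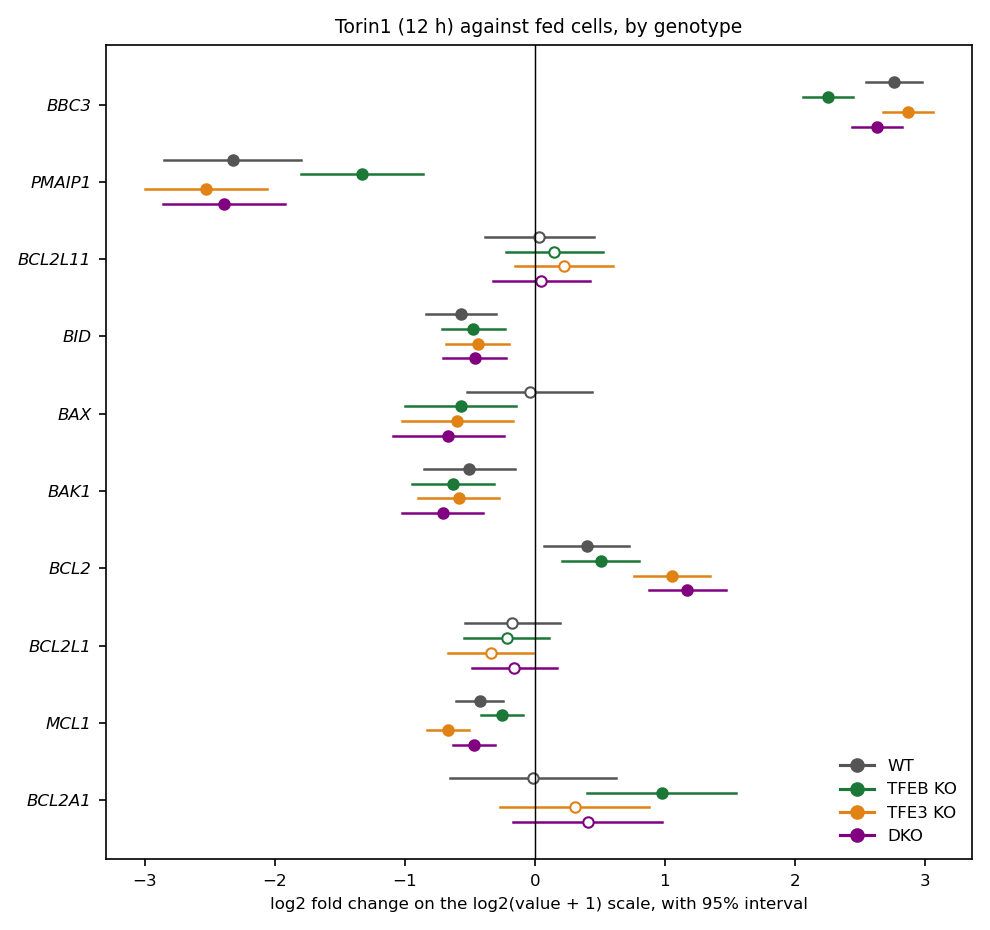
Log2 fold change of each gene with Torin1 against fed cells of the same genotype, on the log2(value + 1) scale, with 95% intervals, filled points for an adjusted p under 0.05. BBC3 and BCL2 lie above 0 and PMAIP1, BID, BAK1 and MCL1 below 0 in all 4 genotypes.

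By count, 2 members were called higher and 4 lower in WT, 3 higher and 5 lower in TFEB KO, 2 higher and 5 lower in TFE3 KO, and 2 higher and 5 lower in DKO cells. The share of all tested genes called higher and lower was 20.5% and 23.4% in WT, 17.4% and 21% in TFEB KO, 25.4% and 26% in TFE3 KO, and 25.4% and 26.2% in DKO. The median log2 fold change of the members was -0.11, -0.23, -0.39 and -0.31 in that order, beside a median over all tested genes of 0.00, 0.00, 0.02 and 0.02. There was no overlap between fed and Torin1 libraries for 6, 8, 7 and 7 members and for 60.2%, 47.2%, 58.4% and 57.1% of all genes.

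Whether the Torin1 response differed between genotypes was tested directly as the response of a knockout minus that of WT, with the same WT libraries in all 3 tests. No member passed in limma for any of the 3 knockouts, where 1.06% (TFE3 KO), 1.16% (TFEB KO) and 0.506% (DKO) of all genes did. At an unadjusted p under 0.05 there were 2 members for TFE3 KO (BCL2 and MCL1), 3 for TFEB KO (BBC3, PMAIP1 and BCL2A1) and 1 for DKO (BCL2). The BBC3 response was smaller in TFEB KO than in WT by 0.51 on the log2 scale (difference -0.51, 95% interval -0.80 to -0.22, adjusted p = 0.0612). That adjusted p ran from 0.0293 to 0.358 over 36 alternatives and passed in 4, among them DESeq2 (adjusted p = 0.0466) and the fit without TFEB KO control replicate 3 (adjusted p = 0.0293), while no member passed in edgeR. The PMAIP1 response was less negative in TFEB KO by 0.995 (95% interval 0.29 to 1.70, adjusted p = 0.158), a difference that passed without WT Torin replicate 3 (adjusted p = 0.0277), which leaves WT Torin with 1 library of 4 PMAIP1 reads, assumed to vary like the other groups. For BCL2 the response exceeded that of WT by 0.66 in TFE3 KO (95% interval 0.21 to 1.10, adjusted p = 0.179) and by 0.78 in DKO cells (95% interval 0.33 to 1.22, adjusted p = 0.0997), and neither passed in any of 36 alternatives.

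Fed knockout cells against fed WT cells ask what TFE3 and TFEB do when nutrients are present. BCL2A1 and BCL2 were lower in the lines without TFE3. BCL2A1 had 0, 0 and 0 in fed TFE3 KO cells, against 3.94, 4.16 and 3.71 in WT, at least 8.10-fold lower when each library is set to 3 reads. In fed DKO cells it had 0, 0 and 0.470, the last being 3 reads, which gives a ratio of WT to DKO of 24.3 with a counting interval from 7.96 to 121. The adjusted p of these falls was 3.33e-08 for TFE3 KO and 1.89e-07 for DKO cells, and every one of 36 alternatives kept both calls. In fed TFEB KO cells BCL2A1 did not differ from WT by the test (log2 fold change -0.29, 95% interval -0.86 to 0.29). MITF, of which BCL2 and BCL2A1 are known targets, had means of 762 in fed WT and 556 in fed DKO cells (log2 fold change -0.46, adjusted p = 1.79e-07). It was not called in fed TFE3 KO (682, -0.16, adjusted p = 0.0986) or fed TFEB KO cells (713, -0.09, adjusted p = 0.332). The fed TFE3 KO libraries all lay below the untreated WT libraries for MITF, and 27.5% of all genes had no overlap there. These are RNA values. By western blot the paper reports some suppression of MITF protein in its TFE3 KO cells and no change in its TFEB KO lines. The part of MITF in the falls of BCL2A1 and BCL2 was not tested.

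BCL2 had a ratio of means to WT of 0.62 in TFE3 KO and 0.534 in DKO cells, with log2 fold changes of -0.67 ± 0.15 (SE, adjusted p = 0.00113) and -0.86 ± 0.15 (SE, adjusted p = 2.20e-05). In TFEB KO cells it was at 0.991 of WT (log2 fold change -0.01, 95% interval -0.31 to 0.28). BBC3 fell in TFE3 KO cells, with a ratio of means of 0.606 and a log2 fold change of -0.69 ± 0.10 (SE, adjusted p = 4.16e-07), but with -0.11 in DKO (95% interval -0.31 to 0.08) and 0.20 in TFEB KO (0.01 to 0.40, adjusted p = 0.15) it did not pass there. When the identical column was counted as WT Torin replicate 1 the adjusted p became 0.156 with the log2 fold change unchanged at -0.69, since that column is in neither group compared. BCL2L11 had 15.7, 15.2 and 15.1 in fed TFE3 KO cells, above every untreated WT library, and its log2 fold change of 0.56 had adjusted p = 0.0457, which ran from 0.00537 to 0.292 over 36 alternatives and passed in 21 of them. It was lost in edgeR (adjusted p = 0.0665) and DESeq2 (adjusted p = 0.0779), with the identical column kept as WT Torin replicate 1 or under both labels (adjusted p = 0.185 and 0.177), and without any 1 of the TFE3 KO control libraries, WT untreated replicate 2 or 3, WT HBSS replicate 1 or 2, TFEB KO Torin replicate 1 or 2, DKO control replicate 2 or DKO Torin replicate 1. PMAIP1, by contrast with its fall in Torin1, had log2 fold changes of 0.01 (TFE3 KO, 95% interval -0.46 to 0.48), 0.08 (TFEB KO, -0.39 to 0.55) and 0.01 (DKO, -0.46 to 0.48).

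**Figure D4:**
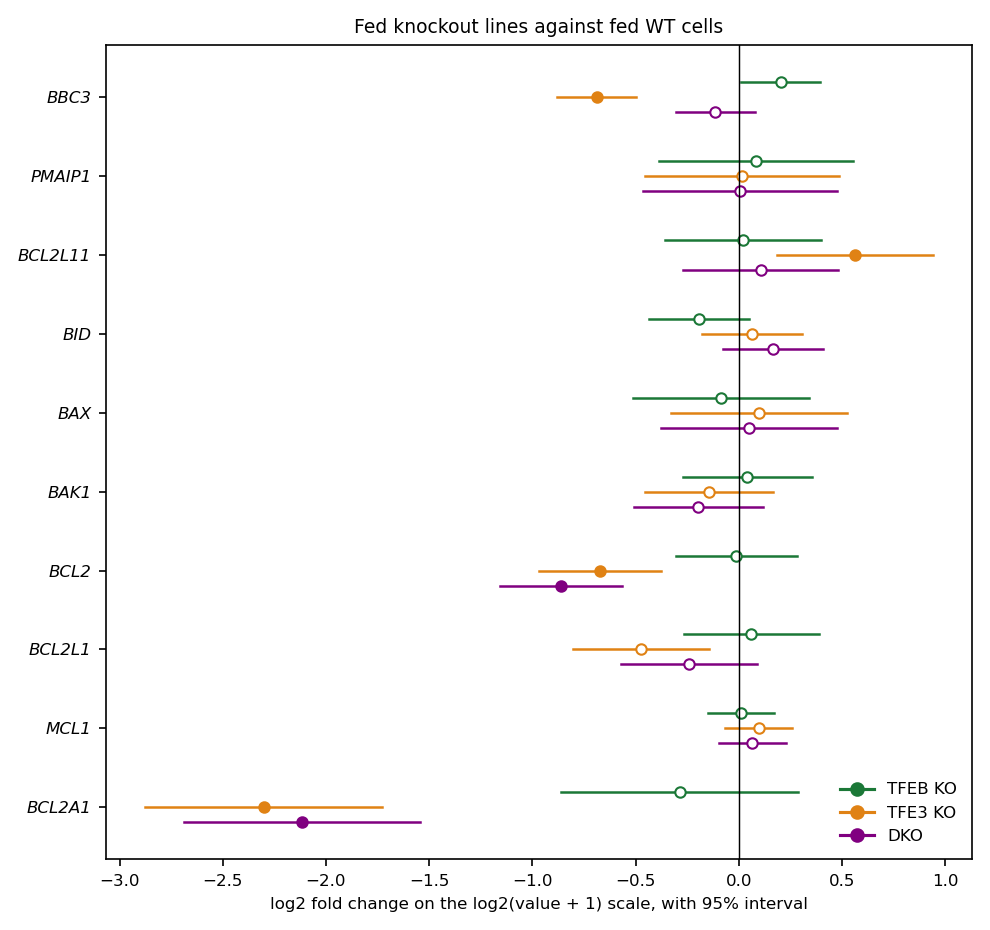
Log2 fold change of each gene in fed knockout cells against fed WT cells, on the log2(value + 1) scale, with 95% intervals, filled points for an adjusted p under 0.05. BCL2A1 and BCL2 lie below 0 in TFE3 KO and DKO cells, and no gene passed in TFEB KO cells.

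In fed TFE3 KO cells 1 member was called higher (3.57% of all genes were) and 3 lower (5.84%). BCL2L1 was not among them, with 12.9, 12.6 and 16.4 against 16.4, 22.4 and 20.5 in WT (log2 fold change -0.47, adjusted p = 0.0569), and it passed in 6 of 36 alternatives, edgeR among them (adjusted p = 0.0462). In DKO cells none was called higher (5.64%) and 2 lower (7.49%). In TFEB KO cells no member was called in limma, edgeR or DESeq2, where 14.6% of all genes were called in either direction by limma, and 1 member, BBC3, had an unadjusted p under 0.05. These comparisons share the untreated WT libraries. Fed TFE3 KO and TFEB KO cells were also set directly against each other, with fold changes that use no WT library and a spread estimated over all libraries. Fed TFE3 KO cells had 1 member called higher than in fed TFEB KO cells (14.3% of all genes) and 4 lower (15.6%). BBC3 was lower by 0.89 (log2 fold change -0.89, adjusted p = 2.92e-10), BCL2 with -0.66 (adjusted p = 0.000452), BCL2A1 with -2.02 (adjusted p = 2.36e-07) and BCL2L1 with -0.53 (adjusted p = 0.0101), and BCL2L11 was higher (0.54, adjusted p = 0.023). Without TFEB KO control replicate 1 or without TFE3 KO control replicate 2 the calls of BCL2L11 and BCL2L1 were lost, leaving 3, and that of BCL2L11 was also lost without TFEB KO control replicate 3 or TFE3 KO control replicate 1 or 3, or with the identical column kept (adjusted p = 0.0866 as WT Torin replicate 1 and 0.0828 under both labels).

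Because 3′ end libraries take a read from the end of a transcript, read counts do not scale with transcript length and can be added over genes. The 4 BH3-only genes together had 30.1% ± 2.99 (SD, n = 3) of the reads of all 10 members in untreated WT cells, 67.8% ± 0.836 (SD, n = 2) in HBSS and 53.7% ± 0.923 (SD, n = 2) in WT Torin. With Torin1 the share was 47.6% ± 1.35 in TFEB KO, 51.6% ± 1.51 in TFE3 KO and 53.2% ± 2.44 in DKO cells (SD, n = 3 each), and all fed libraries of any genotype lay between 27.1% and 34.2%. BBC3 itself went from 24.5% of the BH3-only reads in untreated WT cells to 84.1% in HBSS and 78.3% in WT Torin. These shares contain the gene picked for its rise and are descriptions.

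**Figure D5:**
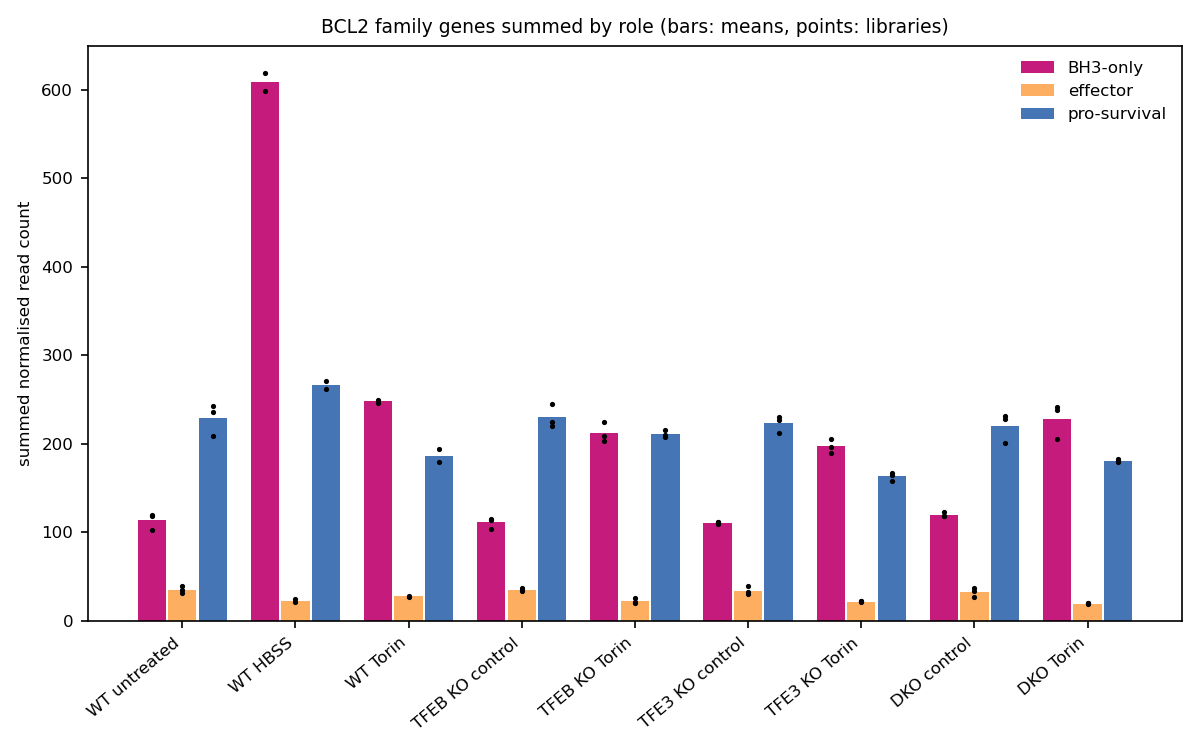
Normalised read counts summed over the BH3-only, effector and pro-survival members, bars for group means and points for libraries, from 0 on a linear axis. The BH3-only sum exceeded the pro-survival sum in HBSS and in the WT, TFE3 KO and DKO Torin1 groups, whereas in TFEB KO Torin1 the libraries of both sums overlapped, and in all fed groups it was lower.

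Ordered by level, BBC3 ran from HBSS through the Torin1 groups (WT, DKO, TFEB KO, TFE3 KO) to the fed groups (TFEB KO, WT, DKO, TFE3 KO), a 30.4-fold range of group means. Neighbours overlapped for DKO and TFEB KO Torin and among fed TFEB KO, WT and DKO cells, and all other neighbours were separate. PMAIP1 had HBSS first, then the 4 fed groups, each overlapping with the next, then TFEB KO Torin, then the overlapping WT, DKO and TFE3 KO Torin groups, a 16.7-fold range. BCL2 had HBSS first, then the Torin1 groups, then fed WT and TFEB KO cells, and fed TFE3 KO and DKO cells last, a 3.71-fold range.

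The rest of the pathway was taken from lists of known genes. Of 10 tested BCL2 relatives outside the members, 4 were called higher and 2 lower with Torin1 in WT cells (median log2 fold change 0.45, and 0.00 over all genes), where 20.5% and 23.4% of all tested genes were. BMF, a BH3-only protein tied to the cytoskeleton, had 3.42 ± 0.544 (SD, n = 3) in untreated and 19.6 ± 2.82 (SD, n = 2) in WT Torin cells and rose by 2.22 on the log2 scale (adjusted p = 3.66e-11). In HBSS it had 4.40 ± 0.605 (SD, n = 2). Its group means with Torin1 were 17.1 in TFEB KO, 10.3 in TFE3 KO and 23.5 in DKO cells against 4.25, 3.10 and 2.89 in the fed lines. BAD, a BH3-only protein controlled by survival kinases, fell (-0.76, adjusted p = 0.000203), as did BCL2L12 (-0.64, adjusted p = 8.05e-05). In HBSS, given without a test, HRK had 53.9 against 19.8 in untreated cells, BCL2L2 10.6 against 4.05, and BCL2L12 40.5 against 80.5.

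Of 14 genes of cytochrome c release and caspase activation, the steps downstream of the pore, 0 rose and 9 fell with Torin1 in WT, 0 and 10 in TFEB KO, 0 and 9 in TFE3 KO, and 0 and 8 in DKO cells, with median log2 fold changes of -0.46, -0.37, -0.41 and -0.39. Of all tested genes, 20.5%, 17.4%, 25.4% and 25.4% rose and 23.4%, 21%, 26% and 26.2% fell in the same order. APAF1, CASP9, DIABLO, HTRA2 and AIFM1 were not called in WT cells, with log2 fold changes from -0.18 to 0.19. CYCS, cytochrome c itself, fell from 326 ± 31.1 (SD, n = 3) to 87.9 ± 0.362 (SD, n = 2) in WT cells (log2 fold change -1.87, adjusted p = 3.70e-22), and had 379 ± 8.52 (SD, n = 2) in HBSS. The executioner caspase CASP6 fell in WT cells (-0.92, adjusted p = 0.00151), to a mean of 6.36. Its means were 10.8 and 8.34 in fed and Torin1 TFEB KO cells, 11.3 and 11.3 in TFE3 KO and 10.4 and 8.28 in DKO cells. Of 5 tested caspase inhibitors, 1 rose and 1 fell with Torin1 in WT cells, where 20.5% and 23.4% of all tested genes did. BIRC7, the melanoma inhibitor of apoptosis, rose from 105 to 260 (log2 fold change 1.30, adjusted p = 4.37e-17), and BIRC5, survivin, fell (-0.53, adjusted p = 1.66e-06). Of 6 tested genes of the death receptor arm, 1 rose and 2 fell (20.5% and 23.4% of all tested genes), FADD (-0.58, adjusted p = 0.00041) with the larger fall. In HBSS, given without a test, the receptor TNFRSF10B had 88.0 against 39.2 in untreated cells, CASP8 3.92 against 10.7, VDAC3 88.1 against 172 and XIAP 57.5 against 39.1. Of 5 tested genes for ubiquitin ligases and a deubiquitinase that set the stability of MCL1 and its relatives, 1 rose and 1 fell with Torin1 in WT cells (median log2 fold change -0.06). The shares of all tested genes were again 20.5% and 23.4%.

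Of 8 transcription factors known to act on these genes, 4 were called higher and 2 lower with Torin1 in WT cells, where 20.5% and 23.4% of all tested genes were. E2F1, which activates PMAIP1 and BBC3 among many cell cycle genes, fell from 48.8 ± 6.01 (SD, n = 3) to 12.0 ± 1.10 (SD, n = 2) (log2 fold change -1.93, adjusted p = 7.94e-11), FOXO1 rose (1.11, adjusted p = 5.17e-06) and TP73 fell (-1.03, adjusted p = 0.000723). FOXO3 rose by 0.73 (adjusted p = 1.43e-06). In the 3 knockout lines with Torin1, E2F1 and TP73 were called lower and FOXO3 higher in each. In HBSS, given without a test, ATF4 had 1443 against 394, DDIT3 123 against 35.5, FOXO3 206 against 63.5 and MITF 1423 against 762.

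The genes whose group means ran most alike to a member over the 9 groups were FAM53B for BBC3 (Pearson r = 0.986), then C11orf96, NAT16, TAF1 and CTDSP2. For PMAIP1 they were DBF4, a subunit of the kinase that fires replication origins (r = 0.998), ATP1B3, LUZP1, KLHL2 and WDR82. BCL2 was most like BNIP3L, a mitophagy receptor of the wider family (r = 0.994), then CDH7, CCSER2, PIP4K2A and CDH19, and BCL2A1 was most like SKI (r = 0.967), FRMD4A, IL24, ANKRD1 and TPM4. Between members, noted after their values were seen, PMAIP1 and MCL1 had r = 0.984 and BBC3 and BCL2 r = 0.907 over the group means. These correlations are across groups that share their library preparation and 3 treatment conditions, and describe likeness over 9 points.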

How the data were processed

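RNA from 27 libraries of 501mel cells was prepared with QuantSeq Forward 3′ end kits. The submitters' processing notes name FastQC 0.11.9, cutadapt 2.10, STAR 2.7.8a, edgeR and the build hg38. The authors deposited a normalised signal per gene symbol, on the scale of CPM. The study's methods name edgeR for the normalisation, and the counter and the scaling method within edgeR were not given in the sources used here. In every column 100% of the values were whole multiples of 1 read (within 0.02 reads), so reads were recovered. Depth is 4147050 to 6526392 reads, and limits from reads cover counting error only. No columns outside the labelled samples were found.

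The members, gene lists and comparisons were chosen with earlier results of these data known. Samples were grouped by label. Genes that reached a value of 1 in 3 or more libraries entered the test, on log2(value + 1), with limma 3.58.1 (trend, robust) in R 4.3.3, in a single fit of 25 libraries. Adjusted p-values are Benjamini-Hochberg over 13052 genes, 2-sided, and a call is an adjusted p under 0.05, so that "rose" and "fell" mean called. Means ± SD are of the deposited values. Named genes are the 10 members, at most 3 genes of each list with the largest change among those called in HBSS or Torin1 in WT with a mean of at least 5, and the 5 genes most correlated with BBC3, PMAIP1, BCL2 and BCL2A1. Further genes (BAD, BCL2L12, FOXO1, FOXO3, TP73, MITF, SOX10, CD68) were added after their values were seen. APAF1, CASP9, DIABLO, HTRA2 and AIFM1 are named as the genes of their list not called with Torin1 in WT, and TFE3 and TFEB as the edited genes. The test was tried on simulated data first.

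The settings also tried were rescaling, no filter, a minimum of 5, a pseudocount of 0.1, only the groups compared, edgeR 4.0.16 and DESeq2 1.42.0 on recovered reads, a replicate block, a fold limit, the identical column kept under either or both labels, and each library left out.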

Additional observations from a re-analysis of the deposited data

Results flagged for a closer look

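The column that carries the labels of both WT HBSS replicate 3 and WT Torin replicate 1 was used in no comparison, and it holds values for all 10 genes. For 5 of them its normalised read count lay above every untreated WT library. BBC3 was at 600 there (600.302), against at most 29.7 in untreated cells, 509 and 514 in the other WT HBSS libraries and 195 and 194 in the other WT Torin libraries. PMAIP1 was at 25.4 against at most 14.3 untreated, with 28.3 and 27.0 in HBSS and 0.938 and 3.56 in Torin1. BCL2 was at 49.2, with 44.4 and 43.5 in HBSS and 30.2 and 28.7 in Torin1. BCL2L11 was at 19.3 and MCL1 at 204, where untreated libraries reached 14.3 and 196. In all 5 genes it lay nearer to the other WT HBSS libraries than to the other WT Torin libraries. These genes were picked because the column exceeded untreated cells, which favours genes high in HBSS, so their likeness is a description and no test. The column had 12917 genes with a read, against 12895 and 12901 in the other WT HBSS and 13188 and 13181 in the other WT Torin libraries. The labels put this column in both groups, so it was assigned to neither. With at most 3 libraries a group, no library was tested for standing apart from its group, and no difference between the Torin1 response of a knockout and that of WT passed for a member in limma, though BBC3 for TFEB KO minus WT passed in 4 of the alternatives and PMAIP1 in 1.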

How the results depend on the processing

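Over 36 alternative settings no member reversed its direction in any of 12 comparisons where it was called. Of the gene results under alternatives, 4242 stayed on their side of the threshold, 60 lost it and 16 gained it. The count of members called for the difference of the Torin1 response between TFEB KO and WT went from 0 to 1 with a minimum value of 5, in DESeq2 and with the replicate block, and was 0 to 1 when single libraries were left out (1 without TFEB KO control replicate 3 or WT Torin replicate 3). A fold limit in addition (log2 fold change of 1 or more in size) left 4 members in HBSS, 2 with Torin1 in WT, 2 in TFEB KO, 3 in TFE3 KO and 3 in DKO, and 1 each in fed TFE3 KO, fed DKO and TFE3 KO against TFEB KO. With the identical column kept as WT Torin replicate 1, or under both labels, 3 members were called with Torin1 in WT, 5 in TFEB KO and 2 in fed TFE3 KO. The fold changes in TFEB KO and fed TFE3 KO cells did not change, since the column is in none of the groups compared there. Their p-values rest on a spread estimated over all libraries, that column included. Kept only as WT HBSS replicate 3, the column changed no member's call. Leaving out single libraries gave 3 to 5 for TFE3 KO against TFEB KO, 6 to 9 for HBSS, 4 to 6 for Torin1 in WT, 6 to 7 in TFE3 KO and DKO, 7 to 8 in TFEB KO and 3 to 5 for fed TFE3 KO. The share of all genes called was not counted under these settings, so the counts show only how far calls depend on the processing. Those for HBSS come from the contrast that helped to choose the members and are no test of them.

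Libraries of equal replicate number were not treated as pairs in the main fit. Over 92 pairs the correlation of deviations from the group means ran from -0.294 to 0.277 with a median of 0.0132, and 14 exceeded 0.1. It was 0.108, 0.0843 and 0.238 for DKO control with DKO Torin, and -0.0483, -0.0204 and -0.129 for TFE3 KO Torin with DKO Torin. Whether libraries of equal number were handled together was not tested. With the replicate block BCL2 with Torin1 in WT was no longer called (adjusted p = 0.0607) and the BBC3 difference between TFEB KO and WT was (adjusted p = 0.033). Rescaling moved the median of all genes by less than 0.1 on the log2 scale. Depth limits BCL2A1 and PMAIP1 most, whose lowest libraries hold 0 and 4 reads, and n = 2 limits WT HBSS and WT Torin.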
